A study of Homo sapiens with 3 samples.

Results

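Glutaredoxins and thioredoxins are small proteins that reduce disulfide bonds and keep cysteine residues of other proteins in their working state. Glutaredoxins draw their electrons from glutathione, and several of them, GLRX3 and GLRX5 among them, also carry iron-sulfur clusters. Thioredoxins are reduced by thioredoxin reductases at the expense of NADPH, and TXNIP binds and inhibits reduced thioredoxin. In lung adenocarcinoma these systems are studied because tumor cells live under raised oxidative stress.

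The genes described here are GLRX, GLRX2, GLRX3, GLRX5, TXN, TXN2, TXNRD1, TXNRD2 and TXNIP, together with C10orf143, the neighbour of GLRX3 that is called LINC00959 in older annotation. They are 10 of the 20163 protein-coding genes in the annotation and were chosen by name. The study searched for regulatory sites in the human cell line H2087, which was established from a lung adenocarcinoma. Untreated cells were used for chromatin immunoprecipitation followed by sequencing (ChIP-seq), with an antibody against histone H3 trimethylated at lysine 4 (H3K4me3, commonly found at active promoters) or acetylated at lysine 27 (H3K27ac, found at active promoters and enhancers). For each mark there was 1 library of this single line, and the library of input chromatin entered no comparison. No value below has a replicate, no difference between the marks was tested, and the lists do not give the sequencing depth.

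A peak was a distinct interval of a list with its −log10 q, the strength that the authors' peak caller gave it, which can be compared only within a list. The lowest value was 1.31 in the H3K4me3 list and 1.30 in the H3K27ac list, so peaks just above these are the weakest called. The start of a gene was taken as its outermost 5′ position in GENCODE 44 on hg19, and upstream and downstream follow the direction of transcription. Of the 18585 H3K4me3 peaks, 43 (0.231%) lay over one of the 10 genes or within 50 kb of it. Of the 24096 H3K27ac peaks, 68 (0.282%) did so. Of 12 markers of adenocarcinoma and epithelium, 8 had H3K4me3 within 1 kb of the start and 8 had H3K27ac. KRT8 had −log10 q of 18.9 and 14.8. Each share was 66.7% (Clopper-Pearson interval 34.9 to 90.1, for counting error only), against 38.2% and 23.6% of all protein-coding starts. The interval included the background share for H3K4me3 but not for H3K27ac. The marked genes are not all separate sites, for which the interval makes no allowance. NKX2-1 and SFTA3 have the same start in the annotation, with a low H3K4me3 value (−log10 q 1.58), and KRT8 shares its H3K27ac peak with KRT18. The surfactant genes SFTPB and SFTPC and the protease gene NAPSA had no peak of either mark there. None of the 11 squamous, neuroendocrine, leukocyte, fibroblast and endothelial markers found in the annotation was marked at the gene start. Near another transcript start, however, COL1A1 had both marks and PDGFRB had H3K27ac. For these 11 markers the interval reached 28.5%, which was below the background of H3K4me3 (38.2%) but not below that of H3K27ac (23.6%).

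GLRX3 encodes a cytosolic glutaredoxin with several glutaredoxin domains. Its start region carried the highest H3K27ac value of any of the 10 starts, in a peak at chr10:131933794-131934368 (−log10 q 5.77, 2 summits). An H3K4me3 peak at chr10:131934023-131934466 (−log10 q 5.26) overlapped it by 346 bp. Both lay in intergenic sequence upstream of the start, at 287 to 861 bp for H3K27ac and 189 to 632 bp for H3K4me3, so that neither touched the gene. Among all starts with a peak within 1 kb, 90.2% had a lower highest value for H3K27ac and 73.9% for H3K4me3. The sequence under these peaks is shown because it is repetitive. In the line below, taken from the middle of the H3K27ac peak (chr10:131933932-131934231, hg19, plus strand), capitals mark the bases of every 12-base word that occurs at least 2 times in the line.
GLRX3 upstream peak, H3K27ac: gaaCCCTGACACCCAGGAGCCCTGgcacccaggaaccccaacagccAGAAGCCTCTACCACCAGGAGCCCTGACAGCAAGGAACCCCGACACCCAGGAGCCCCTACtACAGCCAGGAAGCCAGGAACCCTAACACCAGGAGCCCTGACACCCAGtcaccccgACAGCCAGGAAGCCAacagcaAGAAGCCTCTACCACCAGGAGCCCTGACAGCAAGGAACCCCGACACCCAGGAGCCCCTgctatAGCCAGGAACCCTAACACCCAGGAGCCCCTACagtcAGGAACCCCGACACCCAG

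In this sequence, 149 of 289 12-base words (51.6%) recurred within the same 300 bp, and they covered 251 bases. This share was higher than in 99.8% of all H3K27ac peaks, whose median was 0%. The middle of the overlapping H3K4me3 peak had a share of 29.4%, higher than in 99.3% of the H3K4me3 peaks. Shifting the H3K27ac sequence by 137 bases against itself gave 65.0% identical bases, against a median of 29.8% over the other shifts from 5 to 150 bases, and the short string CCAGGA occurred 12 times. Both marks upstream of GLRX3 were thus called on an imperfect tandem repeat. Of the 32-base words, 64 of 544 in the H3K27ac peak (11.8%) and 37 of 413 in the H3K4me3 peak (9.0%) had another exact copy in hg19, with at most 2 copies in all. Each of these copies lay within 2 kb before the start, and inexact copies elsewhere were not searched for. How the alignment treated reads with several matches is not given in the sources used here, and the part of the repeat in the height of these peaks was not tested.

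The repeat was also poorer in CpG dinucleotides than the promoter. The middle 300 bp of the H3K27ac peak held 4 CpGs and those of the H3K4me3 peak 10, against 25 in the 300 bp from 250 bp before to 50 bp after the start. Fewer CpGs at the peak than at the start were common, and were found at 63.4% of all starts marked by H3K4me3 and at 64.2% of those marked by H3K27ac. Another H3K27ac peak, at chr10:131936010-131936224 (−log10 q 1.64), lay in an intron 1.36 to 1.57 kb downstream of the start, and 23.4% of its 32-base words had another copy in hg19. No further peak of either mark was found over GLRX3 or up to 50 kb beyond its 3′ end.

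C10orf143 runs away from GLRX3 on the minus strand, with 25.6 kb between the starts. The windows of both genes contained the same 6 peaks, 2 of H3K4me3 and 4 of H3K27ac. Around the start of C10orf143, H3K4me3 was found 501 to 779 bp upstream (chr10:131909595-131909873, −log10 q 3.76). H3K27ac was found 878 to 1160 bp upstream (chr10:131909972-131910254, −log10 q 1.55) and 465 to 681 bp downstream, in an intron (chr10:131908413-131908629, −log10 q 2.16). The marks did not overlap at this start, with 98 bp between the upstream peaks. The study placed an enhancer assigned to GLRX3 in an intron of this gene, without coordinates in the sources used here. The intronic H3K27ac peak was the only one over C10orf143 and lay 26.0 kb from the GLRX3 start, and 30.9% of the H3K27ac list had a lower value. Between the peaks at either end, a stretch of 23.5 kb held no peak of either mark, and EBF3 was the only other protein-coding gene with a start inside the joined windows of 264 kb.

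**Figure D1:**
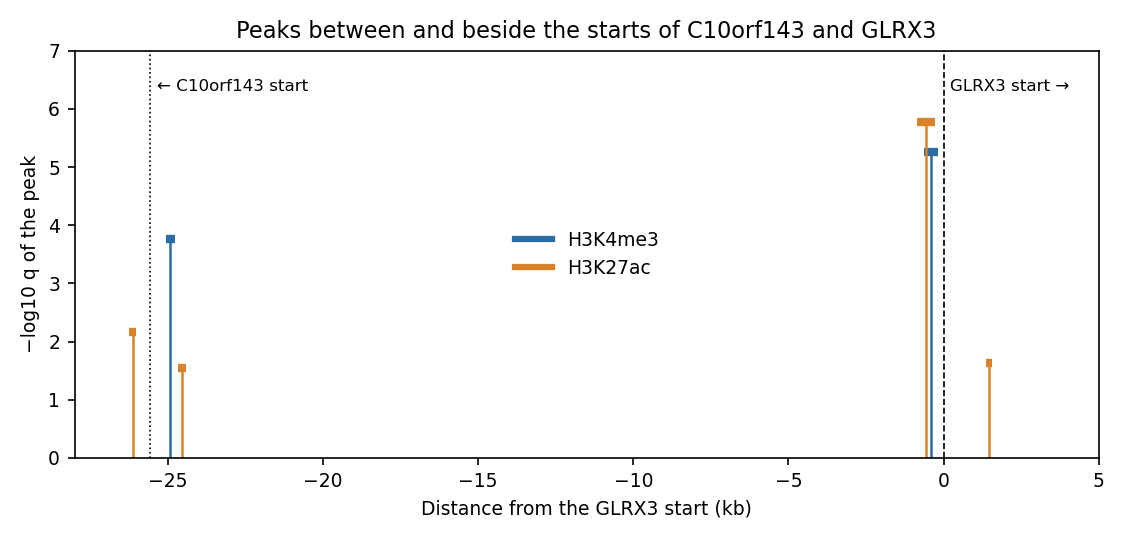
H3K4me3 (blue) and H3K27ac (orange) peaks by distance from the GLRX3 start in kb, with the −log10 q of each peak as its height and its width as a horizontal bar, 1 library per mark. The 6 peaks fall into 3 at the C10orf143 start (dotted line) and 3 at the GLRX3 start (dashed line), with 23.5 kb free of peaks between them.

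The H3K27ac peaks on the C10orf143 side are printed because the intronic one is the only acetylated site within that gene and the upstream one is its nearest acetylated neighbour. Both are from hg19, plus strand, and capitals mark E-box strings (CACGTG or, in the upstream peak, CAGCTG) and the CCAAT box, on either strand.
C10orf143 intronic peak (chr10:131908413-131908629): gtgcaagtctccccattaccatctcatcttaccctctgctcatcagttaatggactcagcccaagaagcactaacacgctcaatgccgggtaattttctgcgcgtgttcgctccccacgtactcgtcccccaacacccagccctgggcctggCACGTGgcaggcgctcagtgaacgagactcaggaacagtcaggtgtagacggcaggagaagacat
C10orf143 upstream peak (chr10:131909972-131910254): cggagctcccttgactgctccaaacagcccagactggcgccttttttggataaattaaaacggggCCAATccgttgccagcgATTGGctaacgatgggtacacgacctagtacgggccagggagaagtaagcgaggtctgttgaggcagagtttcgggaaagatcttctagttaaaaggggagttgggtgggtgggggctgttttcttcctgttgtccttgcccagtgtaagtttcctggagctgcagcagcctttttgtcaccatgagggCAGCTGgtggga
The intronic peak contained CACGTG at base 153 and no CAGCTG, while the upstream peak contained CAGCTG at base 272 and CCAAT at bases 66 and 83. In the whole H3K27ac list, 5.06% of the peaks held CACGTG in 300 bp, 19.2% held CAGCTG and 21.5% held CCAAT. A match, or its absence, describes the letters of these windows and no binding of a factor. None of the 32-base words of these peaks had another copy in hg19, unlike the repeat near GLRX3.

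Over all 10 genes, the starts were marked more often than those of protein-coding genes in general. H3K4me3 lay within 1 kb of 8 starts, against 38.2% of all starts, and H3K27ac of 7 starts, against 23.6%. Both marks were present at 6 starts, against 18.6%, namely those of GLRX, GLRX3, TXN, TXNRD1, TXNIP and C10orf143. TXN2 had H3K27ac only, GLRX5 and TXNRD2 had H3K4me3 only, and GLRX2 had neither within 1 kb of the outer start. Counting the start of any annotated transcript, 9 genes had H3K4me3 (45.4% of all genes) and 9 had H3K27ac (30.7%), and with the window of 50 kb the numbers were 10 for H3K4me3 (70.2%) and 9 for H3K27ac (63.9%). The genes were few and were chosen with earlier results of these lists known, so these shares are a description and were not tested. The strength of the marks at these starts lay near that of all marked starts, with a median of the highest −log10 q of 4.15 for H3K4me3 and 3.05 for H3K27ac, against 3.76 and 3.05 over all marked starts.

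**Figure D2:**
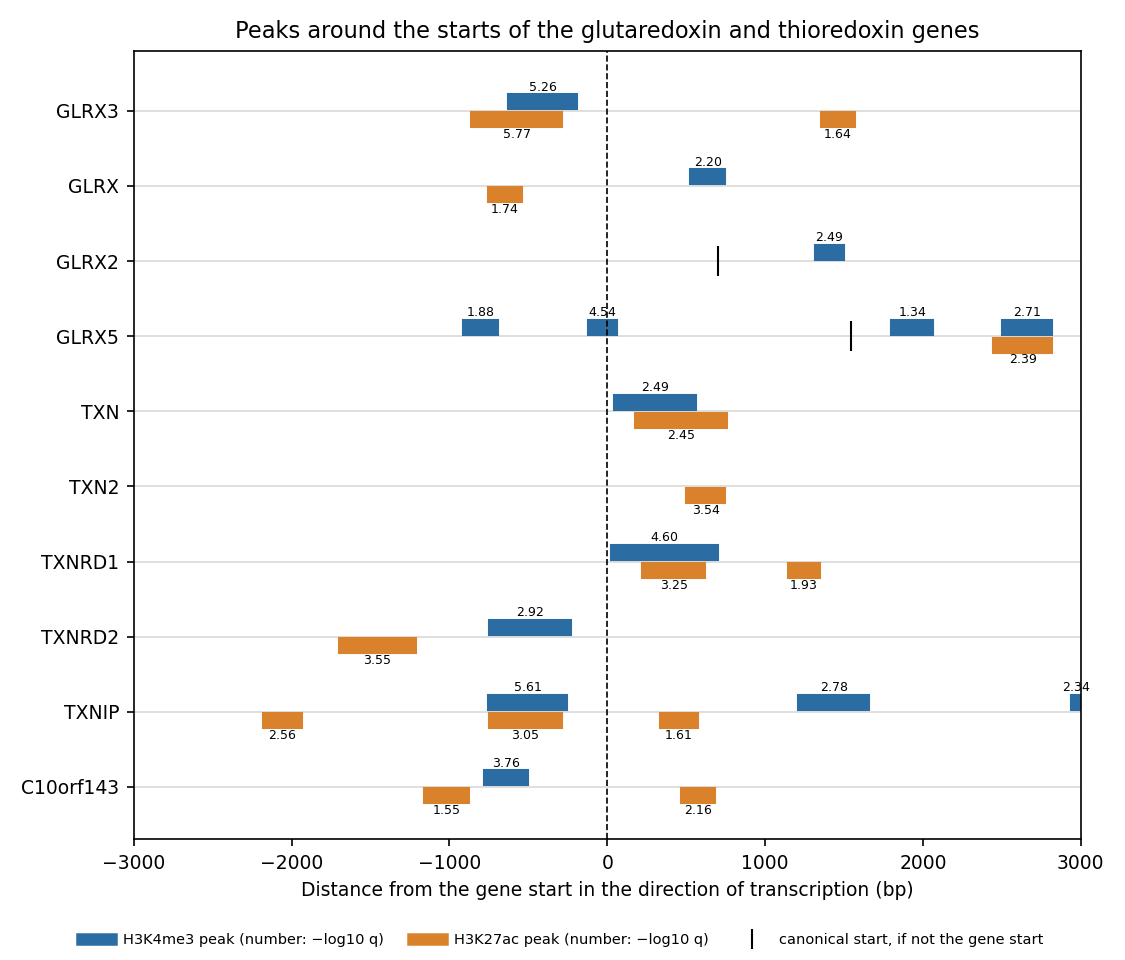
Peaks of H3K4me3 (blue, above each line) and H3K27ac (orange, below) within 3 kb of the start of each gene, by distance in bp along the direction of transcription, with the −log10 q of each peak in figures and 1 library per mark. The marks overlap upstream of the start at GLRX3 and TXNIP, just downstream of it at TXN and TXNRD1, and from 2.5 kb downstream at GLRX5. The vertical bars show the canonical starts of GLRX2 and GLRX5.

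The position of the marks differed between the genes. The highest H3K4me3 peak within 1 kb lay upstream of 4 starts, downstream of 3 and over 1, while over all marked starts it was upstream in 22.8%, downstream in 69.9% and over the start in 7.23%. For H3K27ac it lay upstream of 3 starts and downstream of 4, against 29.0% and 65.6% over all genes. GLRX3 and TXNIP shared the upstream arrangement, with overlapping marks and the highest H3K4me3 values of the 10 starts. When the marked bases within 2 kb of the start were compared with those of GLRX3 over both marks, TXNIP had a Jaccard index (bases in common over bases in either gene) of 0.399, higher than 99.5% of 20153 genes, of which 16202 were at 0. TXNRD2, GLRX and C10orf143 followed at 0.218, 0.146 and 0.0702, and the remaining 5 genes were at 0. The 3 genes most like GLRX3 by this measure were CDPF1 (0.761), VSIG10 (0.708) and GMFB (0.690).

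Among the other glutaredoxins, GLRX encodes the main cytosolic form. Its start had weak marks on opposite sides, H3K4me3 526 to 746 bp downstream (chr5:95157684-95157904, −log10 q 2.20) and H3K27ac 543 to 754 bp upstream (chr5:95158973-95159184, −log10 q 1.74). Only 12.4% of the starts with H3K4me3 and 12.7% of those with H3K27ac had a lower value. The upstream side held many small acetylated sites. Counting the peak at 543 to 754 bp, 9 H3K27ac peaks lay from 0.543 to 41.0 kb before the start. None of them overlapped H3K4me3, and their −log10 q ranged from 1.39 to 3.40. Several lay over noncoding genes, among them LINC01554, and all were placed by distance alone. In 7 of them no 32-base word had another copy in hg19. The H3K4me3 peak closest to this stretch, at chr5:95171478-95171691, had a −log10 q of 7.20, above 94.7% of its list, and lay over an exon of a noncoding gene. The strongest peaks of the window belonged to RHOBTB3, which overlaps GLRX, with H3K4me3 at chr5:95066870-95067676 (−log10 q 9.98) around H3K27ac at chr5:95067020-95067599 (6.60) over its exons 1 and 2.

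GLRX2 encodes a mitochondrial and nuclear glutaredoxin, and was the only one of the 10 genes with no H3K27ac peak within 50 kb, the nearest being 61.7 kb from its start. Its own H3K4me3 peak was narrow (184 bp, chr1:193073745-193073928, −log10 q 2.49) and lay in an intron 1.32 kb downstream of the outer start. The canonical transcript starts 700 bp downstream of the outer start, and from there the distance was 616 bp. The choice of start also changed the base composition, with 1 CpG in the 300 bp at the outer start and 34 at the canonical one. The other 3 H3K4me3 peaks in the window lay at or near the starts of RO60 and UCHL5, with −log10 q of up to 5.42.

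GLRX5, which supports mitochondrial iron-sulfur cluster assembly, had H3K4me3 within 1 kb of its outer and of its canonical start. H3K27ac lay within 1 kb of the canonical start but not of the outer one. At the outer start an H3K4me3 peak of 186 bp (chr14:95999717-95999902, −log10 q 4.54) covered the start itself and the noncoding genes SNHG10 and SCARNA13, and a weaker one lay 694 to 916 bp upstream (chr14:95998924-95999146, 1.88). The canonical start lies 1.55 kb downstream, where H3K4me3 was found over exon 1 (chr14:96001639-96001905, −log10 q 1.34) and in an intron (chr14:96002342-96002658, 2.71). The peak over exon 1 was near the floor, with only 0.748% of the H3K4me3 list below it. The intronic peak overlapped H3K27ac (chr14:96002287-96002657, −log10 q 2.39) by 316 bp. This was the only H3K27ac peak whose nearest start was that of GLRX5, and the other 8 in the window were nearest to SYNE3, a nuclear envelope protein gene, in its introns or just before its start, with a highest −log10 q of 5.92. The strongest H3K4me3 peak beyond 3 kb (3.24) was also in SYNE3.

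TXN, the cytosolic thioredoxin, had the plainest window of the 10. Its 113 kb contained 1 peak of each mark, H3K4me3 at chr9:113018222-113018743 (−log10 q 2.49) over exon 1 and H3K27ac at chr9:113018029-113018609 (2.45) in an intron, with 388 bp in common just downstream of the start. Both values were low for a marked start, with 19.4% of the H3K4me3 starts and 31.3% of the H3K27ac starts below them. TXN2, the mitochondrial thioredoxin, had H3K27ac 500 to 748 bp downstream of its start (chr22:36876939-36877187, −log10 q 3.54). Its nearest H3K4me3 peak (2.29) was 14.8 kb from the start, beyond the 3′ end of the gene, and the strongest H3K27ac peak of the window (chr22:36854371-36854851, 4.32) lay on the same side outside any gene. The start of TXN2 held 21 CpGs in 300 bp, against a median of 18 over all genes.

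TXNRD1, the cytosolic thioredoxin reductase, was marked at its outer start and again inside the gene. At the outer start, H3K4me3 (chr12:104609583-104610256, −log10 q 4.60, 2 summits) began 26 bp downstream over exon 1 and contained the H3K27ac peak (chr12:104609777-104610179, 3.25) completely, and a further H3K27ac peak followed in the intron (chr12:104610700-104610907, 1.93). The other place lay deep inside the gene. Of the 19 annotated transcript starts, 15 fell between 70.2 and 73.1 kb, and there an H3K27ac peak of 1361 bp (chr12:104680915-104682275, −log10 q 3.92, 2 summits) overlapped H3K4me3 at chr12:104680919-104681161 (3.46) and at chr12:104681876-104682283 (1.36). A further H3K4me3 peak followed at chr12:104682779-104683025 (1.67). All 15 of these starts lay within 1 kb of H3K27ac and 14 within 1 kb of H3K4me3, but only 2 were inside a peak.

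**Figure D3:**
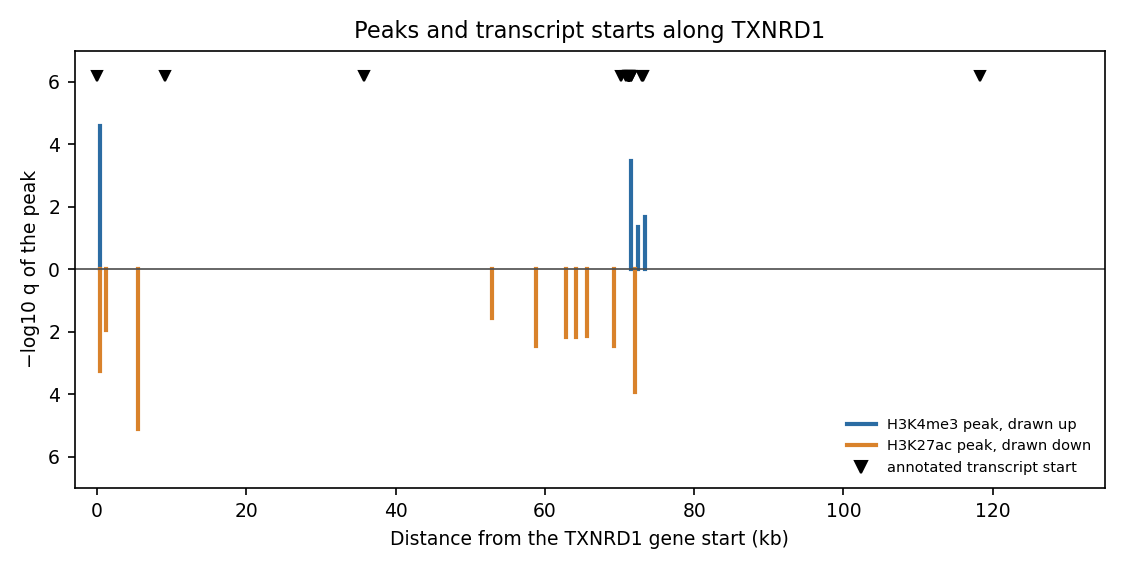
Peaks along TXNRD1 by distance from the gene start in kb, with −log10 q upward for H3K4me3 (blue) and downward for H3K27ac (orange), and triangles for the 19 annotated transcript starts, 1 library per mark. H3K4me3 is found at the gene start and at the group of 15 internal starts near 71 kb, while H3K27ac is also found in the intron between them.

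Before the internal starts, 6 H3K27ac peaks lay in the intron from 52.8 to 69.4 kb, with −log10 q of 1.55 to 2.45 and no H3K4me3. Their sequence was repeated in the genome, with 38.5% to 100% of the 32-base words of each having another copy in hg19. The strongest H3K27ac peak of the gene, at chr12:104614796-104615355 (−log10 q 5.12), had a share of 43.9%. Over all windows, 6 of 68 H3K27ac peaks (8.82%) and 1 of 43 H3K4me3 peaks (2.33%) had more than 50% of such words, read every 20 bases of the middle 300, against 11.6% and 8.49% of the lists. In the window of TXNRD1, 7 of 11 H3K27ac peaks had over 30% of such words when every base of the peak was read. No other window of the 10 had more than 1 such H3K27ac peak. The share of the whole list was not computed in this way, so this count has no background beside it. The part of multiple alignment in these peaks was not tested.

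**Figure D4:**
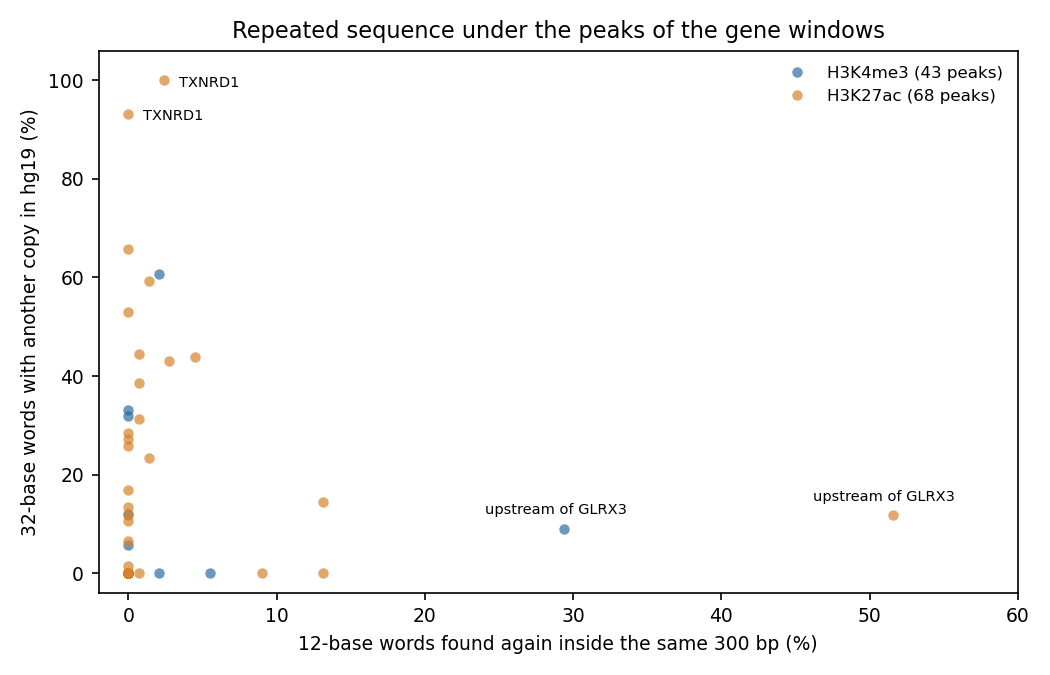
Each point is a peak of the windows of the 10 genes, with the share of 12-base words found again inside its middle 300 bp (percent, horizontal) and the share of 32-base words of the whole peak with another copy in hg19 (percent, vertical). The peaks upstream of GLRX3 stand apart at 29.4% (H3K4me3) and 51.6% (H3K27ac) on the horizontal axis with shares of 9.0% and 11.8% on the vertical one, and 2 intronic H3K27ac peaks of TXNRD1 reach 93.2% and 100% on the vertical axis.

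TXNRD2, the mitochondrial reductase, had H3K4me3 232 to 752 bp upstream of its start (−log10 q 2.92). H3K27ac lay 1215 to 1698 bp upstream (−log10 q 3.55), and the marks did not overlap. These peaks were placed by distance alone and cannot be assigned to the gene. Inside the gene, H3K27ac covered exons 13 and 14 at chr22:19867443-19868287, with a width of 845 bp and a low −log10 q of 1.33. The window was the fullest of the 10, with 9 H3K4me3 and 15 H3K27ac peaks, the highest of them an H3K4me3 peak over an exon of ARVCF (−log10 q 10.7) and H3K27ac peaks at RTL10 (5.12).

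TXNIP, the inhibitor of thioredoxin and an alpha-arrestin, had the highest H3K4me3 value of the 10 starts (chr1:145437737-145438235, −log10 q 5.61), 255 to 753 bp upstream. An H3K27ac peak (chr1:145437738-145438201, 3.05) lay entirely within it. Other peaks surrounded the short gene, with H3K27ac 1.94 kb upstream (−log10 q 2.56) and over exon 1 (1.61), and with H3K4me3 over exons 3 and 4 (2.78) and exon 8 (2.34). In the H3K27ac peak 1.94 kb upstream, 53.1% of the 32-base words had another copy in hg19. The strongest peaks farther away were H3K4me3 over exon 1 of LIX1L (chr1:145477149-145477640, 5.95) and H3K27ac outside genes, nearest to the start of HJV (chr1:145397544-145397799, 4.64). The upstream peaks of TXNIP resembled those of GLRX3 in being poor in CpG, with 6 for H3K4me3 and 5 for H3K27ac against 19 at the start, but no 12-base word recurred in them. TXNIP is known as a target of the glucose-responsive factors MondoA (encoded by MLXIP) and MLX, which bind paired sites of the form CACGNG with 5 bases between them. The promoter is printed because it was the only one of the 10 with such a pair (chr1:145438240-145438489, hg19, plus strand). Capitals mark the pair, the string TGANNNNGC (a loose form of the antioxidant response element core), the CCAAT box and the forkhead string TGTTTAC, on either strand.
TXNIP promoter: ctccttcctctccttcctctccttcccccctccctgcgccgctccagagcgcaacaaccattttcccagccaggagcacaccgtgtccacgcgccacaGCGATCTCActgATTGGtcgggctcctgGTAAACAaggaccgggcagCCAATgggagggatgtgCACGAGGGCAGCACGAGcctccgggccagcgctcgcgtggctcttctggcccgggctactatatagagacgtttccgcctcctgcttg
Of 20163 promoters of 300 bp, 20 (0.0992%) held this pair. It began at base 163 of the printed sequence, downstream of both upstream peaks, which ended 289 and 255 bp before the start.

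For TXN and TXNRD1, the parts shared by both marks are shown because these were the starts where the marks overlapped downstream and on CpG-rich sequence (hg19, plus strand, middle 300 bp of the shared part). Capitals mark the string TGANNNNGC (a loose form of the antioxidant response element core), the GC box (GGGCGG) and the CCAAT box, on either strand.
TXN (chr9:113018266-113018565): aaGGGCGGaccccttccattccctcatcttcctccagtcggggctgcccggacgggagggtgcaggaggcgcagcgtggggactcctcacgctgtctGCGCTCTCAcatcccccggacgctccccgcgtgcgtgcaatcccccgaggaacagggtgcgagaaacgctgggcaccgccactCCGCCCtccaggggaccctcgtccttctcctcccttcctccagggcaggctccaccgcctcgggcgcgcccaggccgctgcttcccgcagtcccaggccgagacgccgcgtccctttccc
TXNRD1 (chr12:104609828-104610127): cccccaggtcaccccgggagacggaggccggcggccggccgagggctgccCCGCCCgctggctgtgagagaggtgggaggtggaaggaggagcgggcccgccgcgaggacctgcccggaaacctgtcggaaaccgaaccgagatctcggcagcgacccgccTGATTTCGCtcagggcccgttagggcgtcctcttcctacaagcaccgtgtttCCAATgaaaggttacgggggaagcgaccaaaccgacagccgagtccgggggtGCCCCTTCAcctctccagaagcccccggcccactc
TXN and TXNRD1 held 34 and 27 CpGs in the 300 bp at the start, and at the peaks 33 and 30 for H3K4me3 and 24 and 29 for H3K27ac. The antioxidant response element, through which NFE2L2 acts, was searched for with TGANNNNGC, a loose form of its core. A match is therefore no evidence of the element. This string is short and frequent, and it can overlap the AP-1 string TGANTCA. It was found in 300 bp of 18 of 43 H3K4me3 peaks (41.9%, list 38.6%) and of 25 of 68 H3K27ac peaks (36.8%, list 41.2%). It was present in 5 of the 10 promoters, those of GLRX3, GLRX5, TXNRD1, TXNRD2 and TXNIP, against 41.6% of all promoters. GGGCGG was also present in 5, those of GLRX3, TXN, TXNRD1, TXNRD2 and C10orf143, against 52.1%, and CCAAT in 5, against 35.8%. In the 68 H3K27ac peaks, CACGTG was found in 8 (11.8%, list 5.06%), CAGCTG in 6 (8.82%, list 19.2%) and TGTTTAC in 3 (4.41%, list 1.73%). In the 43 H3K4me3 peaks, CACGTG was found in 3 (6.98%, list 4.62%) and CAGCTG in 7 (16.3%, list 17.4%). Of the 10 promoters, 0 held CACGTG (8.33% of all) and 2 held CAGCTG (16.8%). None of these differences was tested.

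Most peaks in the windows were not at the 10 starts. Within 3 kb of a start were 14 H3K4me3 and 14 H3K27ac peaks, and the nearest protein-coding start was one of the 10 for 20 H3K4me3 and 31 H3K27ac peaks. Of the H3K4me3 peaks 23 touched an exon, 15 lay in introns and 5 outside genes, whereas of the H3K27ac peaks 14 touched an exon, 40 lay in introns and 14 outside genes. The marks overlapped at 19 H3K4me3 peaks (44.2%, list 31.1%) and 18 H3K27ac peaks (26.5%, list 24.0%). Width and strength were similar to the lists, with median widths of 309 and 314.5 bp (lists 305 and 284) and median −log10 q of 3.11 and 2.45 (lists 2.97 and 2.65) for H3K4me3 and H3K27ac. The windows had more peaks than most, with a median of 4 H3K4me3 and 7 H3K27ac peaks per gene against 2 and 1 over all protein-coding genes, but the range ran from 1 to 9 and from 0 to 15. Longer genes had longer windows. Per 100 kb of window, the medians were 2.59 and 4.53 against 0.989 and 0.887. The peaks shared by GLRX3 and C10orf143 count for both genes in these medians. TXNRD2 and GLRX had more H3K27ac peaks than 96.9% and 96.0% of all genes, whereas GLRX3 and C10orf143 (70.1% each) and TXN (36.1%) were nearer the middle.

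**Figure D5:**
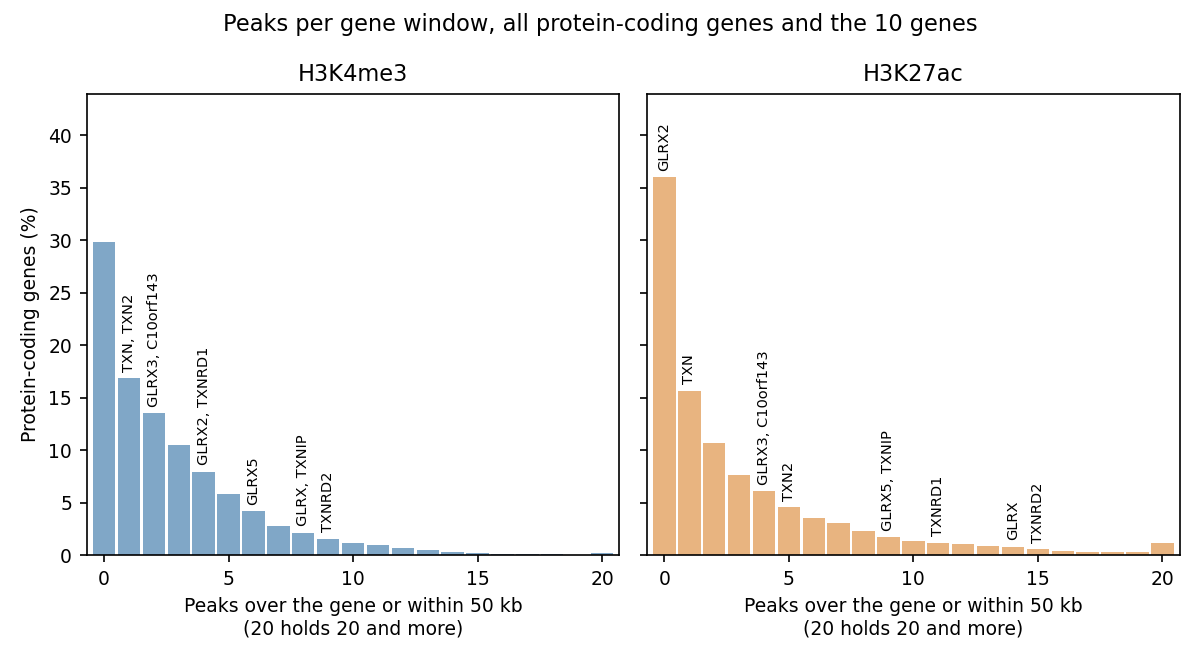
Percentage of the 20163 protein-coding genes (vertical) by the number of H3K4me3 (left) or H3K27ac (right) peaks over the gene or within 50 kb (horizontal), with the 10 genes named above the bar they fall in and 1 library per mark. TXNRD2 has the most peaks of the 10 genes in both panels (9 and 15), GLRX and TXNIP follow at 8 in the left one and GLRX at 14 in the right one, while TXN lies at 1 peak of each mark and GLRX2 at 0 H3K27ac peaks.

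The wider redox pathway was read from 59 further genes listed by function. H3K4me3 lay within 1 kb of the start of 34 of them (57.6%, 95% Clopper-Pearson interval 44.1 to 70.4, for counting error only) and H3K27ac of 23 (39.0%, 26.5 to 52.6), with both at 17. The background shares are those given for the 10 genes, 38.2% and 23.6%, and no test was made of the lists. Iron-sulfur cluster partners of the glutaredoxins had H3K4me3 at 10 of 12 starts, the highest share of the lists for this mark, and H3K27ac at 5 (41.7%), below the share of the peroxiredoxins, of glutathione synthesis and of the regulators. The cysteine desulfurase NFS1 had the highest H3K4me3 value (−log10 q 8.21) and BOLA3, a partner of GLRX5, the highest H3K27ac value (4.72), while BOLA2, which binds GLRX3, and ISCA2 had no H3K4me3. BOLA2 has a near-identical copy, so its lack of a peak is uncertain, and whether reads from it were placed was not tested.

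Peroxiredoxins, most of which pass electrons from thioredoxin on to peroxides, had the opposite order of marks, with H3K27ac at 5 of 7 starts and H3K4me3 at 2. PRDX5 had the highest H3K4me3 value (−log10 q 6.50) and PRDX3 the highest H3K27ac value (4.32). PRDX1, PRDX2, PRDX3, PRDX4 and SRXN1 had no H3K4me3 at the gene start, but PRDX2, PRDX3 and SRXN1, which repairs oxidized peroxiredoxins, had H3K27ac. Genes with a thioredoxin domain were marked by H3K4me3 at 8 of 16 starts and by H3K27ac at 5, with the highest values at TXNDC15 (8.01) and TXNDC5 (4.99). No H3K4me3 was found at TXNRD3, a reductase gene related to TXNRD1 and TXNRD2, or at TXNL1, TXNL4A, TXNDC9, TXNDC12, TMX2, TMX3 and TMX4.

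Glutathione synthesis and reduction had H3K4me3 at 3 of 6 starts and H3K27ac at 3. GCLM, the modifier subunit of the limiting enzyme, had a high H3K4me3 value (−log10 q 9.32), GPX1 had the highest H3K27ac value (3.55), and GCLC, GSR and GPX1 had no H3K4me3. Thioredoxin clients had H3K4me3 at 4 of 7 starts and H3K27ac at 2, with the highest values at MSRB1 (6.86) and RRM2 (2.82), and without H3K4me3 at MSRA, MSRB2 and RRM2. The alpha-arrestins, the family of TXNIP, had H3K4me3 at 4 of 5 starts and H3K27ac at 1. ARRDC3 had the highest H3K4me3 value of all listed pathway genes (12.7), ARRDC1 had H3K27ac (2.22) and ARRDC5 had no H3K4me3. Of the regulators, MLX had an H3K27ac value of 10.4 and MLXIP an H3K4me3 value of 3.87, while NFE2L2 and its inhibitor gene KEAP1 had no H3K4me3 at the gene start. Among the glutaredoxin-like genes of hair cells, GRXCR2 had H3K4me3 (4.20), GRXCR1 had none, and neither had H3K27ac.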

How the data were processed

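Peak lists of 2 ChIP-seq libraries of H2087 cells were analysed, 1 for each histone mark, and the library of input chromatin was not used here. According to the methods and processing notes, the authors aligned reads to hg19 with Bowtie 1.1.1 and called peaks with MACS2 2.1.0. The cutoff used, the handling of duplicate and multiply aligned reads and the role of the input in the calling are not given in the sources used here. The deposited lists hold a position, a name and a value without header, read from the numbers as the −log10 q of a summit. Entries with the same position were joined and the highest −log10 q was kept. Positions are 1-based on hg19. Genes, transcripts and exons came from GENCODE 44 mapped to that build, and sequences from the GRCh37 genome with pysam 0.24.0. RefSeq tables of another build were not used for positions or sequences.

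Peaks were counted as marking a start when an edge lay within 1 kb. Motifs were searched on both strands in 300 bp around peak centres and in promoters from 250 bp before to 50 bp after each start. Repetition was measured by 12-base words within the middle 300 bp of a peak and by 32-base words counted in chromosomes 1 to 22, X and Y on both strands, both added after the sequences had been seen. The counting functions were checked on simulated intervals and sequences. Some items are not reported here. The genes and lists were chosen with earlier results of these data known. All 10 genes were named with the peaks within 3 kb of their starts, all peaks around GLRX3 and C10orf143, and the strongest other peak of each window. Of each pathway list, the genes with the highest value per mark and those without H3K4me3 were named. The H3K4me3 peak upstream of GLRX with its stretch of acetylated sites, and the intronic stretch of TXNRD1 were chosen after their values were seen. The marker PECAM1 was not matched in the annotation. No test between groups was possible with 1 library per mark.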

Additional observations from a re-analysis of the deposited data

How the results depend on the processing

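No paired analysis was possible because a mark had a single library, which also leaves no replicate to omit. For 11 results, 51 alternative values were computed, of which 29 stayed within the tolerance (a factor of 1.5 for counts and the 95% interval for shares) and 22 did not. The canonical transcript start was added after the annotation had been examined. When peaks below the median −log10 q were dropped from each list, 5 of the 10 starts had H3K4me3 and 4 had H3K27ac, against 26.8% and 14.9% of all starts, 15 listed pathway genes had H3K27ac, and the windows held 22 H3K4me3 and 31 H3K27ac peaks, 11 of these overlapping H3K4me3. GLRX3, TXNRD1 and TXNIP kept both marks. Within 500 bp, the shares of all starts were 30.8% and 17.8%, and 15 pathway genes had H3K27ac. They were 43.3% and 29.9% within 3 kb, 45.4% and 30.7% for any transcript start, and 41.3% and 25.2% for canonical starts. Windows of 10 kb held 19 H3K4me3 and 31 H3K27ac peaks, 6 of these overlapping H3K4me3. With H3K4me3 allowed within 1 kb, 29 H3K27ac peaks counted as overlapping. In 1000 bp around the centre, 99 peaks held TGANNNNGC. The alternatives themselves remove peaks or redefine what counts, which moves these values. The unknown depth limits every statement about an absent mark.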

Other observations

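Several redox genes without H3K4me3 at the outer gene start had it within 1 kb of another transcript start. This was so for PRDX1, GCLC, RRM2 and NFE2L2, which raised the number of marked pathway genes from 34 to 38 of 59, and the number with H3K27ac from 23 to 29. The shares over all genes rose as well, from 38.2% to 45.4% and from 23.6% to 30.7%. NFE2L2, the regulator of antioxidant response genes, and PRDX1 had neither mark at the gene start and then had both. RRM2, GSS, ARRDC2 and ARRDC3, each with a single mark at the gene start, also had both with this definition. Of the 10 genes, GLRX2 still lacked H3K27ac and TXN2 still lacked H3K4me3 with this definition.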
